A study of Mus musculus with 9 samples.

Results

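The 9 genes Prdm1, Xbp1, Sdc1, Jchain, Mzb1, Creb3l2, Ell2, Fkbp11 and Tnfrsf17, which belong to the program that turns a B cell into an antibody-secreting plasma cell, were examined in RNA sequencing of mouse splenic B cells. They were taken by gene symbol from the deposited expression table, which held all 9 of them among 17596 genes. Primary B cells came from Mb1Cre mice and from Mct1f/fMb1Cre mice on a C57BL/6J background, 6 to 8 weeks old. Mb1Cre expresses Cre recombinase from the B cell-specific Mb1 locus and was carried by both genotypes, and in Mct1f/fMb1Cre mice it deletes a floxed segment of the lactate and pyruvate transporter gene Mct1, listed in the table as Slc16a1. The cells were sequenced without stimulation (day 0; 2 Mb1Cre and 2 Mct1f/fMb1Cre libraries) or after 3 days of culture with the bacterial lipopolysaccharide LPS at 10 µg/ml and the cytokine IL-4 at 50 ng/ml (day 3; 2 Mb1Cre and 3 Mct1f/fMb1Cre libraries). Values were FPKM, fragments scaled by the length of the transcript and by the mapped fragments of the library. The labels name no mouse or litter, so p-values measure only the spread between these libraries, which may be technical.

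Plasma cell differentiation is a switch between opposed sets of regulators. PRDM1, also called BLIMP-1, silences genes of the B cell state such as Pax5, Bcl6 and Ciita, and XBP1, whose mRNA is spliced by the stress sensor IRE1, builds the enlarged endoplasmic reticulum on which antibodies are folded and exported. Around these regulators stand proteins that handle the antibody itself. ELL2 favours the secreted form of the heavy chain mRNA, MZB1 and FKBP11 are endoplasmic reticulum proteins of antibody-secreting cells, and the J chain joins IgM and IgA into polymers. Syndecan-1, the product of Sdc1 and also known as CD138, and BCMA, the product of Tnfrsf17, are surface proteins by which plasma cells are recognised. LPS drives B cells to divide and to form plasmablasts, and together with IL-4 it induces class switching to IgG1 and IgE. The immunoglobulin constant region genes were not analysed here.

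To show the regulatory DNA of genes that the results turn on, the 250 bases upstream of the annotated start were taken from the RefSeq promoter table of GRCm38.p6 for Prdm1 and Xbp1, which rose together on activation, and for Jchain, which moved in opposite directions in the genotypes. No exon of the GENCODE annotation lay in these stretches. That of Prdm1 lies at chr10:44458749-44458998 on the minus strand, that of Xbp1 at chr11:5520391-5520640 on the plus strand and that of Jchain at chr5:88527898-88528147 on the minus strand. Each is written 5′ to 3′, with the core ACGT that bZIP factors such as XBP1 and CREB3L2 recognise in capitals.
Prdm1: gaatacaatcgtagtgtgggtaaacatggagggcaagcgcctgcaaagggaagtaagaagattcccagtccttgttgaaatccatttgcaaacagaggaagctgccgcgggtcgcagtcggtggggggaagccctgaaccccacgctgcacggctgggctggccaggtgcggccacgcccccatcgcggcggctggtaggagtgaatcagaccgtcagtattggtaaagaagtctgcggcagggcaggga
Xbp1: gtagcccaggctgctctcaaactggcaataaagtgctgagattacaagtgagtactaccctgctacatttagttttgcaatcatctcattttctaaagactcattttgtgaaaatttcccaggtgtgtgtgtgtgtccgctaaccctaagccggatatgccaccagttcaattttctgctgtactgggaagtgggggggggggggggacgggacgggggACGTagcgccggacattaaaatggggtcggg
Jchain: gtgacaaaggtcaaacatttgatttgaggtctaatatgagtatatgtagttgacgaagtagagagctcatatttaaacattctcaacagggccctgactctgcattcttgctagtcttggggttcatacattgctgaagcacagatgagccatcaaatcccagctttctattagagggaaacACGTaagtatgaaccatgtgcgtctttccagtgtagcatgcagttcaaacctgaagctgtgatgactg
The first base of the ACGT core was 31 bases upstream of the Xbp1 start and 68 bases upstream of the Jchain start, and the Prdm1 stretch held none. RefSeq windows of 300 bases, 250 before to 50 after the start, were matched for 8 of the 9 members, with 9 windows in all because Fkbp11 had a second start, and Mzb1 was the other member. ACGT, read on both strands, was in 5 of these 9 windows and in 30.9% of 32851 promoters. Ell2 had 3 matches, Creb3l2 had 1 and the second start of Fkbp11 had 2. The cyclic AMP response element TGACGTCA, which contains the core, was in the Ell2 window alone and in 1.79% of promoters. The unfolded protein response element TGACGTGG (0.676% of promoters; it also contains the core), the ER stress element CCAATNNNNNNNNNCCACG (0.119%), the PRDM1 motif GNGAAAGT (4.21%) and the ETS and IRF composite element GGAANNGAAA (2.72%) were in none of the 9 windows. These matches describe letters in short windows and were not tested for binding.

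The deletion was checked first. Slc16a1 had 22.58 and 22.95 FPKM in the Mb1Cre libraries and 10.82, 9.81 and 9.50 FPKM in the Mct1f/fMb1Cre libraries on day 3, where the genotypes did not overlap (log2 change -1.11 ± 0.0712 SE; adjusted p = 9.07e-06, limma with Benjamini-Hochberg adjustment). On day 0 it had 4.33 and 3.80 FPKM in Mb1Cre and 3.71 and 4.06 FPKM in Mct1f/fMb1Cre libraries, so the genotypes overlapped there. The 3 B cell markers Cd79a, Cd79b and Ms4a1 were present in every library, with summed levels of 3088 to 3481 FPKM on day 0 and 1393 to 1467 FPKM on day 3. Cd79a, Cd79b and Ms4a1 fell with activation in both genotypes, with log2 changes in Mb1Cre and Mct1f/fMb1Cre cells of -1.53 and -1.64, -0.97 and -0.84, and -0.90 and -0.80. RNA of other cells was higher on day 0: the 8 myeloid markers summed to 1029 to 1862 FPKM there and to 15.07 to 25.44 FPKM on day 3, with Mpo and Elane listed at 0 in 2 of the 3 Mct1f/fMb1Cre day 3 libraries. The 6 erythroid markers summed to 125.2 to 231.1 FPKM on day 0 and to 4.34 to 7.95 FPKM on day 3, with Hbb-bs at 0 in every day 3 library, and the 8 T and NK cell markers to 58.8 to 71.0 FPKM and then 6.54 to 8.41 FPKM. The 6 plasmacytoid dendritic cell markers summed to 59.5 to 72.6 FPKM on day 0. The Y-linked gene Ddx3y had 0.02 and 0.24 FPKM in the Mb1Cre day 0 libraries, 31.13 and 0.20 FPKM in the Mct1f/fMb1Cre day 0 libraries and 14.69 to 16.91 FPKM on day 3, so that activation and the sex of the mice cannot be told apart in the Mb1Cre cells. The genotype comparison on day 0, activation in Mct1f/fMb1Cre cells and the interaction of genotype and day were not balanced for Ddx3y, and the part of sex in them was not tested. In bulk RNA, fewer cells of a type and less RNA per cell cannot be told apart either.

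Most of the plasma cell genes were higher after 3 days with LPS and IL-4 in both genotypes. In Mb1Cre cells Mzb1, Xbp1, Prdm1, Fkbp11, Ell2 and Jchain rose and Sdc1 fell. In Mct1f/fMb1Cre cells Mzb1, Prdm1, Xbp1, Fkbp11 and Ell2 rose, and Sdc1 and Jchain fell. A gene was called when its adjusted p was under 0.05 and its log2 change over 0.5 in size, among the 10823 genes that averaged 1 FPKM or more over the libraries. Tnfrsf17, with a mean of 0.302 FPKM, was the member that did not pass this filter. Of the 8 members tested, 6 were called higher and 1 lower in Mb1Cre cells, beside 24.8% of all tested genes called higher and 33.0% lower. In Mct1f/fMb1Cre cells 5 members were called higher and 2 lower, beside 23.4% and 33.2% of all tested genes. The median log2 change of the tested members was 1.55 in Mb1Cre and 1.53 in Mct1f/fMb1Cre cells, beside -0.12 and -0.14 over all tested genes.

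**Figure D1:**
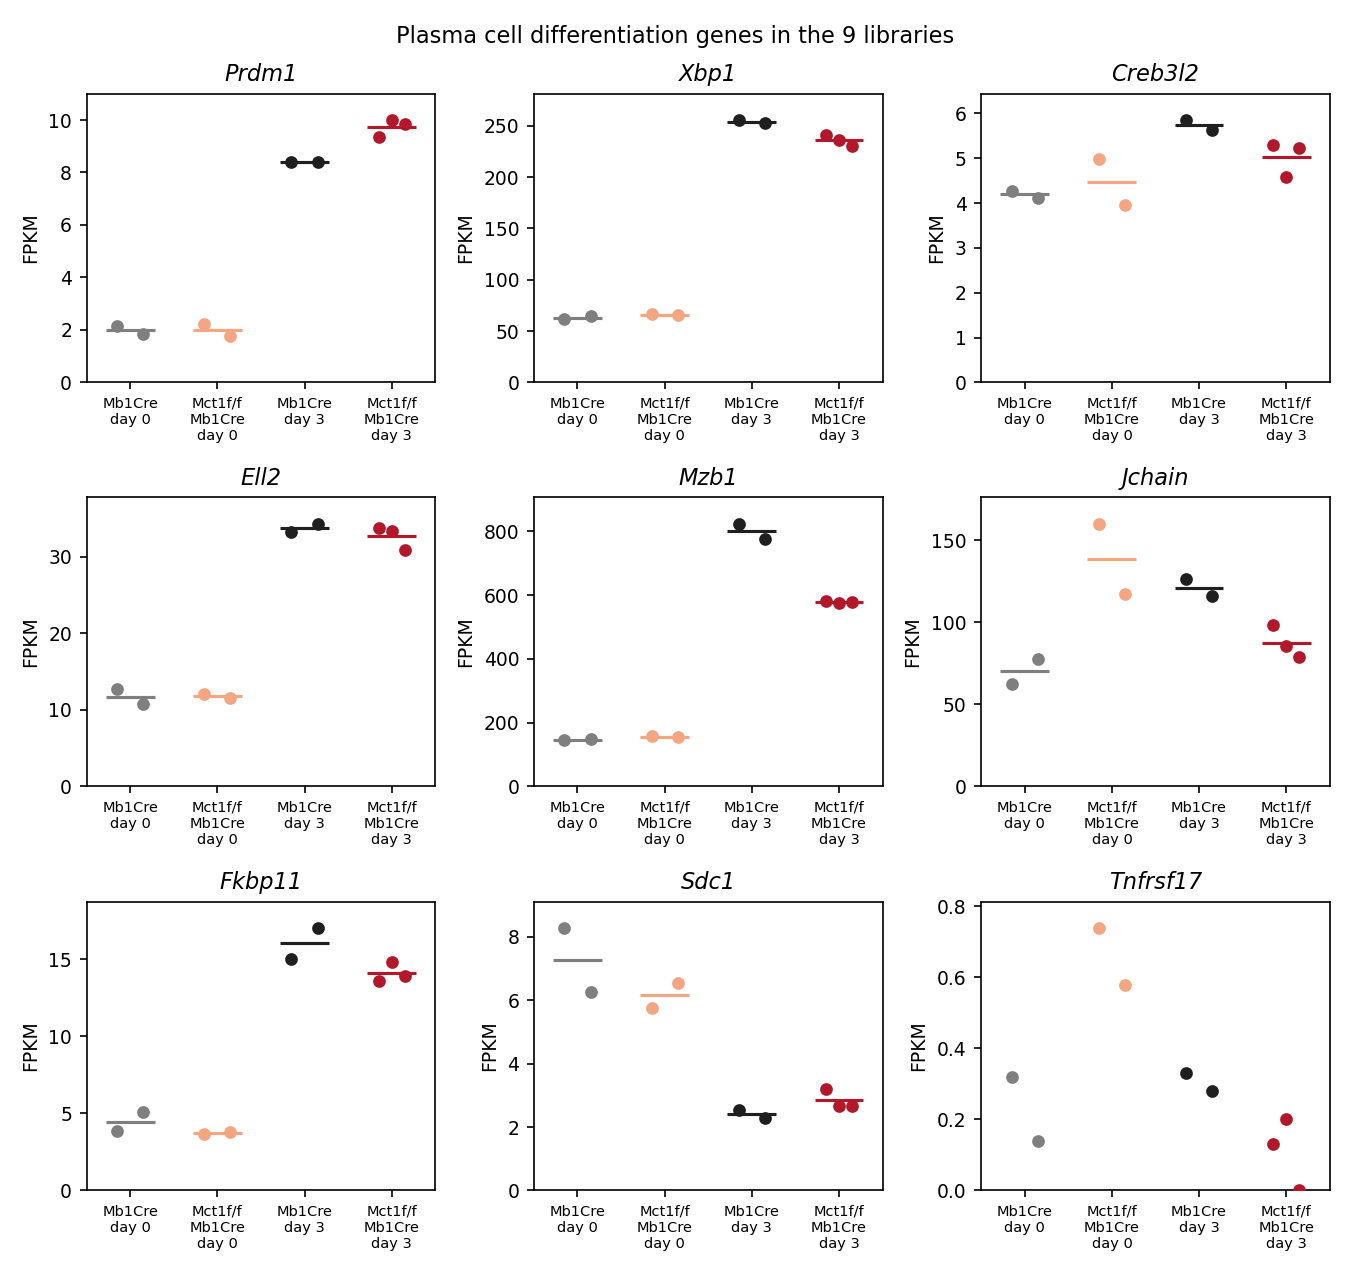
FPKM of the 9 plasma cell differentiation genes in each of the 9 libraries, on linear axes that start at 0. Points are libraries, coloured by genotype and day, and bars are group means, which are left out for Tnfrsf17. Prdm1, Xbp1, Mzb1, Ell2 and Fkbp11 are higher in every day 3 library than in any day 0 library, Sdc1 is lower in every day 3 library, and the group mean of Jchain is highest in the Mct1f/fMb1Cre cells on day 0, where the libraries have 159.94 and 117.29 FPKM.

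Among the regulators, Prdm1 had 2.15 and 1.86 FPKM in Mb1Cre and 2.23 and 1.76 FPKM in Mct1f/fMb1Cre libraries on day 0. On day 3 it had 8.41 and 8.39 FPKM in Mb1Cre and 9.34, 10.01 and 9.85 FPKM in Mct1f/fMb1Cre libraries. The days were far apart, and on day 3 each Mct1f/fMb1Cre library lay above both Mb1Cre libraries. Prdm1 rose 4.19-fold in Mb1Cre cells (adjusted p = 1.06e-08, limma) and 4.88-fold in Mct1f/fMb1Cre cells (adjusted p = 1.77e-09, limma). The day 3 difference of 0.19 ± 0.0799 (SE, log2) had an adjusted p of 0.141 and was not called.

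Xbp1 was the regulator with the highest level. It had 61.47 and 64.42 FPKM in Mb1Cre and 66.21 and 65.56 FPKM in Mct1f/fMb1Cre libraries on day 0. On day 3 it had 255.87 and 252.43 FPKM in Mb1Cre and 241.15, 236.30 and 230.32 FPKM in Mct1f/fMb1Cre libraries. The Mct1f/fMb1Cre libraries were thus the higher group on day 0 and the lower group on day 3, without overlap on either day. Xbp1 rose 4.04-fold in Mb1Cre and 3.58-fold in Mct1f/fMb1Cre cells (adjusted p = 1.08e-11 and 9.48e-12, limma). Neither its day 3 difference (-0.11 ± 0.0385 SE, log2; adjusted p = 0.088) nor the difference between its 2 activation changes (-0.17 ± 0.0570; adjusted p = 0.0871) passed the test. The deposited value is for the gene, so spliced and unspliced Xbp1 mRNA were not separated.

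Creb3l2, which encodes a bZIP factor of the endoplasmic reticulum membrane, changed least among the regulators. Its values were 4.28 and 4.11 FPKM in Mb1Cre and 4.99 and 3.96 FPKM in Mct1f/fMb1Cre libraries on day 0, and 5.86 and 5.64 FPKM and then 5.30, 4.59 and 5.23 FPKM on day 3. All Mb1Cre day 3 libraries were above the day 0 libraries of that genotype, whereas the days overlapped in Mct1f/fMb1Cre cells. The log2 change with activation was 0.38 ± 0.0967 (SE) in Mb1Cre cells, with an adjusted p of 0.00357 but inside the limit of 0.5, and 0.15 ± 0.0883 in Mct1f/fMb1Cre cells (adjusted p = 0.142). The former was called after median-of-ratios scaling (0.55) and quantile normalization (0.66), and the latter ran over the alternatives from -0.0014, when libraries were scaled to the same total, to 0.46 after quantile normalization (adjusted p = 4.84e-04, in a range of 4.84e-04 to 0.989), without a call. Ell2, the elongation factor, had 12.70 and 10.69 FPKM in Mb1Cre and 12.07 and 11.60 FPKM in Mct1f/fMb1Cre libraries on day 0. It had 33.23 and 34.29 FPKM in Mb1Cre and 33.79, 33.36 and 30.81 FPKM in Mct1f/fMb1Cre libraries on day 3. The genotypes overlapped on both days, and Ell2 rose 2.89-fold and 2.76-fold with activation (adjusted p = 7.65e-09 and 4.86e-09, limma). Its day 3 genotype difference was -0.05 ± 0.0681 (SE, log2; adjusted p = 0.712).

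**Figure D2:**
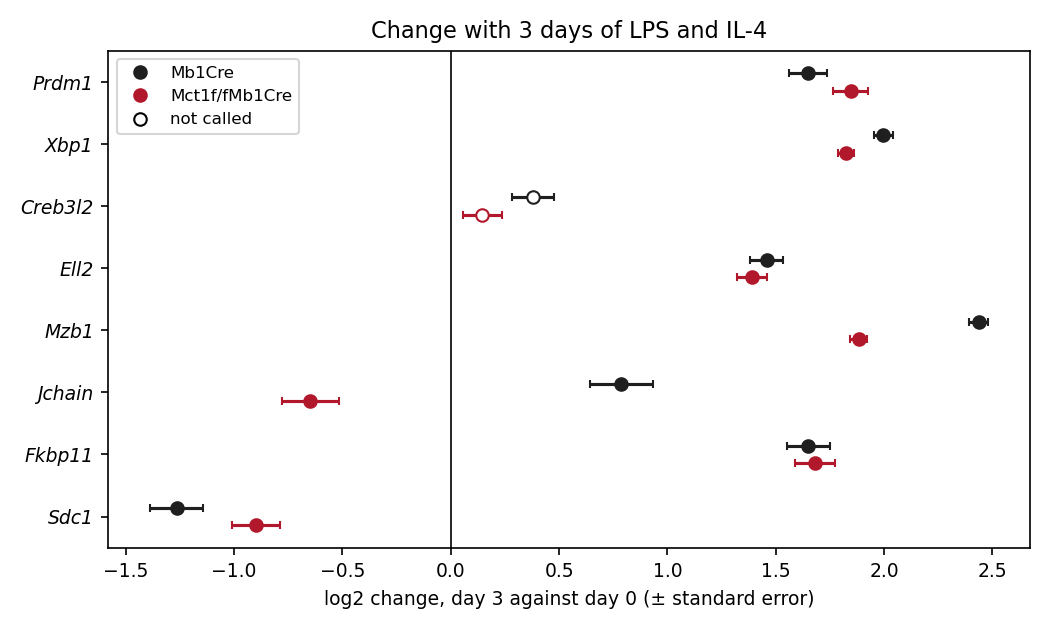
Log2 change from day 0 to day 3 of the 8 tested members in Mb1Cre (black) and Mct1f/fMb1Cre (red) cells, with bars of 1 standard error and open symbols for changes that were not called. The Jchain symbols lie on opposite sides of 0, at 0.79 and -0.65, and those of Mzb1 lie at 2.44 and 1.88.

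Mzb1, which encodes a chaperone partner of the endoplasmic reticulum, had the highest mean of the 9 genes in every group. It had 146.32 and 147.28 FPKM in Mb1Cre and 156.76 and 154.82 FPKM in Mct1f/fMb1Cre libraries on day 0. On day 3 it had 823.48 and 775.22 FPKM in Mb1Cre and 582.39, 573.57 and 576.60 FPKM in Mct1f/fMb1Cre libraries. The lowest Mb1Cre library on day 3 was well above the highest Mct1f/fMb1Cre library. The Mct1f/fMb1Cre mean, 577.5 ± 4.48 FPKM (SD, n = 3), was 72.2% of the Mb1Cre mean, 799.4 ± 34.1 FPKM (SD, n = 2), a log2 change of -0.47 ± 0.0388 (SE; adjusted p = 4.05e-05, limma) that stayed inside the limit of 0.5. Mzb1 rose 5.45-fold in Mb1Cre and 3.71-fold in Mct1f/fMb1Cre cells, and the difference between these changes was called (interaction of genotype and day -0.55 ± 0.0575 SE, log2; adjusted p = 5.44e-04). Without the second Mb1Cre day 3 library the day 3 difference was -0.51 and was called.

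Among the 8 tested members, Jchain was the 1 whose direction on activation differed between the genotypes. On day 0 it had 62.27 and 77.86 FPKM in Mb1Cre and 159.94 and 117.29 FPKM in Mct1f/fMb1Cre libraries. On day 3 it had 126.07 and 115.92 FPKM in Mb1Cre and 98.13, 85.56 and 78.56 FPKM in Mct1f/fMb1Cre libraries. The Mct1f/fMb1Cre libraries were above the Mb1Cre libraries before activation and below them after it, without overlap on either day. Jchain rose 1.73-fold in Mb1Cre cells (adjusted p = 3.76e-04, limma) and fell to 63.1% of the day 0 mean in Mct1f/fMb1Cre cells (adjusted p = 7.78e-04, limma). This fall (-0.65 ± 0.133 SE, log2) was not called after median-of-ratios scaling (-0.43). The interaction was -1.44 ± 0.197 (SE, log2; adjusted p = 0.00246). On day 3 the Mct1f/fMb1Cre mean was 72.2% of the Mb1Cre mean, a log2 change of -0.47 ± 0.133 (SE; adjusted p = 0.0377, limma) inside the limit of 0.5, and this adjusted p ran from 0.00122 to 0.221 over the alternatives. Across the 8 tested members, Mzb1 and Jchain were the 2 with a called interaction, both lower, beside 3.23% of all tested genes called in either direction, and the median interaction was -0.12 over the members and -0.02 over all tested genes.

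The Jchain values on day 0 rested on few libraries. The Mct1f/fMb1Cre mean was 1.98-fold the Mb1Cre mean, a log2 change of 0.97 ± 0.145 (SE; adjusted p = 0.0193, limma), and Jchain was the 1 member called on day 0, beside 0.277% of all tested genes called in either direction. The Mct1f/fMb1Cre replicate 1 library had the highest Jchain value, and also the highest myeloid sum (1862 FPKM, against 1029 to 1221 FPKM in the other day 0 libraries), the highest erythroid sum (231.1 FPKM, against 125.2 to 143.6 FPKM) and the only Ddx3y value above 1 FPKM on day 0. The plasmacytoid dendritic cell marker sum was instead lowest in this library (59.54 FPKM, against 67.43 to 72.56 FPKM in the other day 0 libraries). The part of other cells and of sex in the Jchain result was not tested. Without this library the day 0 difference was 0.74 with an adjusted p of 0.0579 and the fall on activation in Mct1f/fMb1Cre cells was -0.43, and neither was called, whereas the interaction was -1.21 and was called. The adjusted p of the day 0 difference ran from 6.88e-04 to 0.343 over the 22 alternative settings, 15 of which kept the call. Those that did not included leaving out Mb1Cre day 0 replicate 1 (0.81; adjusted p = 0.0854) and Mct1f/fMb1Cre day 3 replicate 2 (0.97; adjusted p = 0.0522).

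Fkbp11, which encodes a prolyl isomerase of the secretory pathway, had 3.85 and 5.06 FPKM in Mb1Cre and 3.65 and 3.77 FPKM in Mct1f/fMb1Cre libraries on day 0, and 15.04 and 17.04 FPKM and then 13.58, 14.82 and 13.91 FPKM on day 3. The Mct1f/fMb1Cre libraries lay below the Mb1Cre libraries on both days. Fkbp11 rose 3.60-fold and 3.80-fold with activation (adjusted p = 3.19e-08 and 1.13e-08, limma), and its genotype differences of -0.20 ± 0.0997 on day 0 and -0.17 ± 0.0910 on day 3 (SE, log2) had adjusted p-values of 0.468 and 0.244.

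The surface marker gene Sdc1 did not follow Prdm1 and Xbp1 on activation. Sdc1 had 8.29 and 6.25 FPKM in Mb1Cre and 5.75 and 6.56 FPKM in Mct1f/fMb1Cre libraries on day 0. It had 2.54 and 2.29 FPKM in Mb1Cre and 3.21, 2.65 and 2.67 FPKM in Mct1f/fMb1Cre libraries on day 3. The days were apart in both genotypes, with day 3 lower, while Prdm1 and Xbp1 were higher on day 3 in the same libraries. Sdc1 fell to 33.2% of the day 0 mean in Mb1Cre and to 46.2% in Mct1f/fMb1Cre cells (adjusted p = 1.72e-06 and 1.44e-05, limma). The interaction of 0.37 ± 0.164 (SE, log2; adjusted p = 0.192) was not called, but it was 0.55 (adjusted p = 0.0478) without Mb1Cre day 0 replicate 2, within a range of adjusted p over the alternatives of 0.0478 to 0.469. The myeloid, erythroid and T and NK cell marker sums fell on the same day as Sdc1, and their part in its fall was not tested. Tnfrsf17 had 0.32 and 0.14 FPKM in Mb1Cre and 0.74 and 0.58 FPKM in Mct1f/fMb1Cre libraries on day 0, and 0.33 and 0.28 FPKM and then 0.13, 0.20 and 0.00 FPKM on day 3. All of these values were under 1 FPKM. When genes of all levels were tested, the log2 change of Tnfrsf17 with activation in Mct1f/fMb1Cre cells was -0.58 (adjusted p = 8.50e-04) and its 4 other contrasts were not called. The other genes of the BAFF and APRIL system were Tnfrsf13c, the BAFF receptor, with log2 changes on activation of -0.09 in both genotypes that were not called, and Tnfsf13, which encodes APRIL and fell in both (-2.04 and -2.19). Tnfsf13b, which encodes BAFF, did not pass the filter.

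On day 3, no member was called between the genotypes, beside 2.42% of all tested genes called in either direction, and 4 of the 8 tested members had an unadjusted p under 0.05 in limma, beside 29.0% of all tested genes. By adjusted p alone 2 members, Mzb1 and Jchain, were lower and none was higher, beside 9.21% of all tested genes lower by that rule. Plasmacytoid dendritic cells, which also express Jchain and Mzb1, were followed by 6 markers that summed to 54.71 and 53.21 FPKM in Mb1Cre and 39.46, 42.98 and 40.51 FPKM in Mct1f/fMb1Cre libraries on day 3. Of these 6 markers Cox6a2, which rose on activation, was called lower and none higher. The other 5 markers summed to 25.51 and 25.54 FPKM in Mb1Cre and a higher 29.52, 28.3 and 26.94 FPKM in Mct1f/fMb1Cre libraries. Most of that sum was Tcf4 and Pacsin1. Tcf4 had means of 17.93 FPKM in Mb1Cre and 18.76 FPKM in Mct1f/fMb1Cre cells, and Pacsin1 had 7.395 and 9.323 FPKM. The log2 change of Pacsin1 was 0.30 (adjusted p = 0.0278, limma), inside the limit of 0.5. Ccr9 (means of 0.085 and 0.07 FPKM) and Klk1 (0.06 and 0.02 FPKM) were near the floor, and the genotypes overlapped for both. The defining marker Siglech had 0.04 to 0.09 FPKM in all day 3 libraries, with means of 0.055 FPKM in Mb1Cre and 0.077 FPKM in Mct1f/fMb1Cre cells. The 8 myeloid markers summed to 16.81 and 15.07 FPKM and then 24.48, 22.16 and 25.44 FPKM, with 2 called higher, and their part in the genotype differences was not tested. Of all 9 members, 6 had every Mct1f/fMb1Cre library below every Mb1Cre library, Prdm1 and Sdc1 had every one above and Ell2 overlapped, and 47.1% of tested genes did not overlap in this comparison. The median log2 change on day 3 was -0.14 over the tested members and -0.01 over all tested genes. On day 0, 5 of the 9 members did not overlap, with Xbp1, Jchain, Mzb1 and Tnfrsf17 higher and Fkbp11 lower in Mct1f/fMb1Cre libraries, beside 38.4% of tested genes. Among the 8 tested members, the differences on day 0 other than that of Jchain were at most 0.20 in size on the log2 scale and had adjusted p-values of at least 0.468 in limma.

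**Figure D3:**
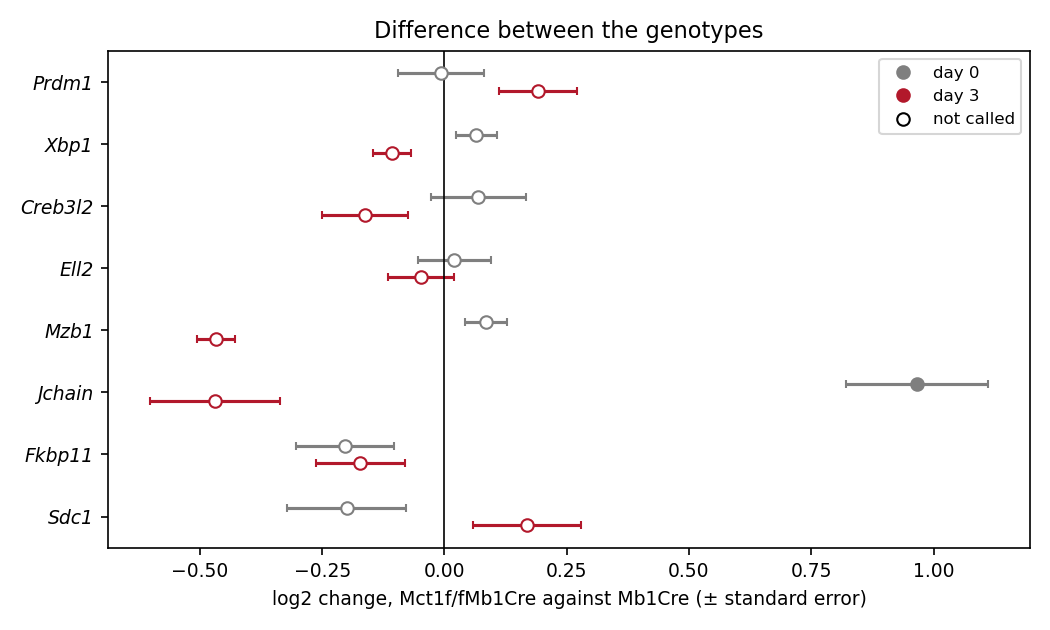
Log2 difference of Mct1f/fMb1Cre against Mb1Cre cells for the 8 tested members on day 0 (grey) and day 3 (red), with bars of 1 standard error and open symbols for differences that were not called. Jchain on day 0 (0.97) is the filled symbol, and on day 3 Mzb1 and Jchain lie furthest below 0 (both -0.47).

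The order of the members' FPKM levels, which are per length, was shared by the genotypes on day 3 and differed between the days. On day 3 the order in both genotypes was Mzb1, Xbp1, Jchain, Ell2, Fkbp11, Prdm1, Creb3l2, Sdc1 and Tnfrsf17, and no neighbours overlapped. On day 0 the Mb1Cre order was Mzb1, Jchain, Xbp1, Ell2, Sdc1, Fkbp11, Creb3l2, Prdm1 and Tnfrsf17, in which Jchain and Xbp1 overlapped and Fkbp11 and Creb3l2 overlapped. In Mct1f/fMb1Cre cells on day 0 Creb3l2 stood above Fkbp11, and Mzb1 overlapped with Jchain. Sdc1 stood above Fkbp11, Creb3l2 and Prdm1 on day 0 and below all of them on day 3. The 9 genes together summed to 301.7 and 317.7 FPKM in Mb1Cre and 412.3 and 365.9 FPKM in Mct1f/fMb1Cre libraries on day 0, and to 1271 and 1212 FPKM and then 987.0, 961.1 and 948.0 FPKM on day 3. Mzb1 alone made up 64.8% and 64.0% of this sum in the Mb1Cre day 3 libraries and 59.0% to 60.8% in the Mct1f/fMb1Cre day 3 libraries.

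Among the genes whose pattern over the 9 libraries was most like that of Prdm1 were Ptges3 (Pearson's r = 0.9988 on the log2 scale) and Bub3 (0.9982). Those most like Xbp1 were Gbp2 (0.9997), Batf (0.9996) and Klhdc2 (0.9996). Values this high were common, since 2485 tested genes had an r over 0.95 with Prdm1 and 2700 with Xbp1, and the 9 points share the step between day 0 and day 3.

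Other genes of plasma cells were compared with the members, with 19 of a list of 20 tested. In Mb1Cre cells 12 were called higher and 3 lower on activation (median log2 change 0.66), and in Mct1f/fMb1Cre cells 9 higher and 4 lower (median 0.47). Over all tested genes, 24.8% were called higher and 33.0% lower in Mb1Cre cells, and 23.4% and 33.2% in Mct1f/fMb1Cre cells. Tent5c, which encodes a poly(A) polymerase that stabilises mRNAs of secreted proteins, rose by 3.59 and 2.58 on the log2 scale, Bhlha15, a transcription factor of secretory cells, by 2.30 and 2.16, and Derl3, a gene of endoplasmic reticulum degradation, by 2.15 and 1.58. The chemokine receptor gene Cxcr3 fell (log2 changes -2.23 and -2.43), as did Glcci1 (-2.22 and -1.86), and in Mct1f/fMb1Cre cells Ly6c2, a surface protein gene of plasma cells and other leukocytes, fell as well (-1.73). On day 3, 1 gene of this list was called higher and 4 lower in Mct1f/fMb1Cre cells (median -0.13), and 6 had a called interaction, all lower. Over all tested genes, 2.42% were called on day 3 and 3.23% in the interaction, in either direction. Tent5c had 36.59 and 38.65 FPKM in Mb1Cre and 21.67, 23.13 and 22.09 FPKM in Mct1f/fMb1Cre libraries on day 3 (log2 change -0.73; adjusted p = 4.26e-04, limma), with no overlap. The log2 change was -1.02 for Ly6c2 and -0.59 for Cd93, a receptor gene of long-lived plasma cells. Irf4, the factor that induces Prdm1, and Zbtb20, a factor of long-lived plasma cells, were named after their values were seen. Irf4 had 80.26 and 77.84 FPKM in Mb1Cre and 55.85, 55.21 and 57.46 FPKM in Mct1f/fMb1Cre libraries (log2 change -0.49; adjusted p = 5.54e-05, limma), inside the limit of 0.5. Prdm1 was higher in each of those Mct1f/fMb1Cre libraries than in the Mb1Cre libraries, but its difference was not called (0.19; adjusted p = 0.141, limma). Zbtb20 had a log2 change of -0.52 (adjusted p = 0.00399).

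Eaf2, which encodes an ELL-associated factor and thus a partner of the family of Ell2, went the other way. It had 12.45 and 14.61 FPKM in Mb1Cre and 56.82 and 39.47 FPKM in Mct1f/fMb1Cre libraries on day 0, and 22.50 and 20.82 FPKM and then 44.66, 42.62 and 41.68 FPKM on day 3. The Mct1f/fMb1Cre libraries were higher on both days, while Ell2 overlapped on both. The log2 difference of Eaf2 was 1.74 on day 0 (adjusted p = 2.62e-04, limma) and 0.96 on day 3 (adjusted p = 5.20e-04, limma).

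**Figure D4:**
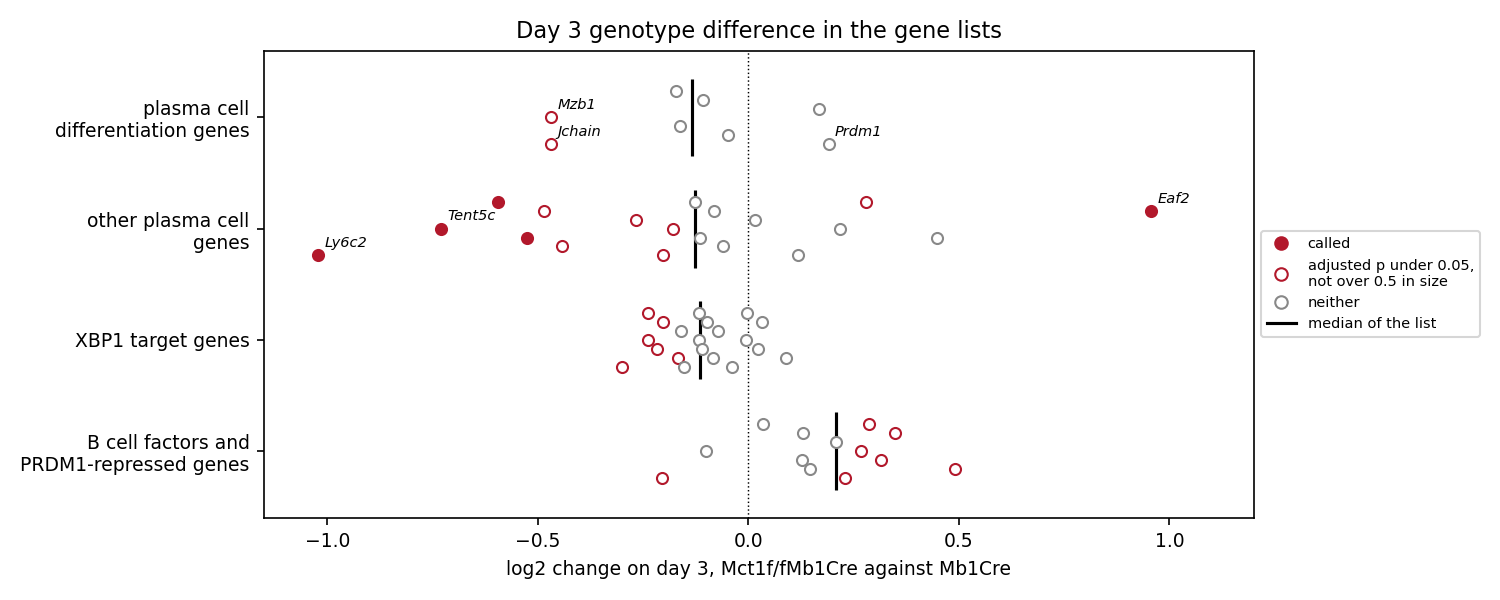
Log2 change on day 3, Mct1f/fMb1Cre against Mb1Cre, of each tested gene in 4 lists. Filled symbols are called genes, red open symbols have an adjusted p under 0.05 with a change inside 0.5, grey symbols have neither, and vertical bars are list medians (-0.14, -0.13, -0.11 and 0.21 from top to bottom).

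Most target genes of XBP1 in the secretory pathway rose on activation. Of 20, 15 were called higher in Mb1Cre cells and 13 in Mct1f/fMb1Cre cells, with none called lower and medians of 1.09 and 1.01. Of all tested genes, 24.8% and 23.4% were called higher and 33.0% and 33.2% lower (medians -0.12 and -0.14). Sdf2l1, a chaperone cofactor gene, rose by 2.11 and 2.06 on the log2 scale, Creld2 by 1.81 and 1.55 and the disulfide isomerase gene Pdia6 by 1.56 and 1.40. Syvn1 instead had lower means on day 3, at 105.2 against 147.1 FPKM in Mb1Cre and 111.9 against 139.7 FPKM in Mct1f/fMb1Cre cells. Its log2 change in Mb1Cre cells was -0.48 (adjusted p = 2.83e-06, limma), inside the limit of 0.5. Dnajb9 also had lower means on day 3 in both genotypes. On day 3 none of the 20 was called between the genotypes, with 9 at an unadjusted p under 0.05 in limma (29.0% of all tested genes) and 6 lower by adjusted p alone (9.21% of all tested genes; median -0.11).

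B cell factors and genes that PRDM1 silences showed the opposite picture, with 13 of 14 tested. On activation 11 were called lower in Mb1Cre cells (median -1.504) and 9 in Mct1f/fMb1Cre cells (median -1.381), and none was called higher in limma. By the same rule 33.0% and 33.2% of all tested genes were lower and 24.8% and 23.4% higher (medians -0.12 and -0.14). Of the 13, 12 had an unadjusted p under 0.05 in each genotype, beside 85.3% and 86.1% of all tested genes, so that count is near the background. The complement receptor gene Cr2 had log2 changes of -5.41 and -5.12, Ets1, a factor that holds back plasma cell formation, of -2.79 and -2.44, and Id3 of -2.77 and -2.41. On day 3 none of the 13 was called between the genotypes, with 10 at an unadjusted p under 0.05 in limma (29.0% of all tested genes), and by adjusted p alone 6 were higher and 1 lower in Mct1f/fMb1Cre cells (6.03% and 9.21% of all tested genes; median 0.21). Prdm1 and the other genes above were measured in whole cultures, in which plasmablasts and B cells were not separated.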

How the data were processed

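RNA sequencing of 9 libraries of mouse splenic B cells was analysed from the deposited FPKM values, 1 per gene and library for 17596 genes, rounded to 2 decimals. The authors state that the sequencing institute assembled and analysed the data. The submitters' processing notes name Bowtie2 and the GRCm38/mm10 genome, and the program that computed the FPKM and its annotation are not given in the sources used here. FPKM are scaled by gene length and mapped fragments. They hold no read counts and their low values showed no common step, so sequencing depth is unknown and no counting interval was given. The precision rests on 2 or 3 libraries per group.

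Groups came from the sample labels. The 10823 genes that averaged 1 FPKM or more were tested as log2(FPKM + 1), which understates changes of low genes, with limma 3.58.1 in R 4.3.3 (1 mean per group over all 9 libraries, empirical Bayes with a trend, Benjamini-Hochberg adjustment over all tested genes). Calls needed an adjusted p under 0.05 and a log2 change over 0.5 in size. The comparisons were the genotypes on each day, activation in each genotype, and the interaction of genotype and day. SE is the standard error from limma. The procedure was tested on simulated data. Alternatives were other pseudocounts, filters, scalings, limits, fits on the compared groups, no trend, a replicate block and each library left out. Tables and figures were made in Python 3.11.15 with pandas 2.3.3 and matplotlib 3.10.9.

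All 9 members were described in every comparison, with Slc16a1, up to 3 called genes of each other list per direction and comparison, all genes of lists of 6 or fewer, and those of the 3 genes most like Prdm1 and Xbp1 that are reported. Some items are not reported here. The members and lists were chosen with earlier results of these data known. Promoter sequences came from RefSeq (GRCm38.p6).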

Additional observations from a re-analysis of the deposited data

Results flagged for a closer look

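For 13 genes of the lists the change with activation differed between the genotypes by the interaction of genotype and day in limma, with Benjamini-Hochberg adjusted p under 0.05 and a log2 difference over 0.5 in size. Values are the log2 change in Mct1f/fMb1Cre minus that in Mb1Cre cells. The Y-linked gene Ddx3y was not balanced over the groups of this contrast, and the part of sex was not tested. Among the members these were Jchain (-1.44; adjusted p = 0.00246), which rose in Mb1Cre cells and fell in Mct1f/fMb1Cre cells, and Mzb1 (-0.55; adjusted p = 5.44e-04), which rose in both. The calls of Jchain, Ly6c2, Tent5c and Slc16a1 were kept under all 21 alternatives, and those of Mzb1 and Hba-a1 under 20 of 21.

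Among the other plasma cell genes, the interaction was -1.26 for Ly6c2, -1.01 for Tent5c, -0.78 for Eaf2, -0.58 for Cd93, -0.58 for Derl3 and -0.52 for Zbtb20. The call was lost under 14 of 20 alternatives for Zbtb20, 8 of 21 for Eaf2, 4 of 21 for Derl3 and 3 of 21 for Cd93. Eaf2 rose in Mb1Cre cells by 0.64, while its change in Mct1f/fMb1Cre cells was -0.14 (adjusted p = 0.302). Ly6c2 changed by -1.73 in Mct1f/fMb1Cre cells and by -0.47 in Mb1Cre cells. The targeted gene Slc16a1 had -1.06, with a rise of 2.23 in Mb1Cre and 1.18 in Mct1f/fMb1Cre cells.

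Of the markers of other cells, the macrophage genes Adgre1 and Lyz2 had 0.51 and 0.57, the globin gene Hba-a1 had -0.91, and Cox6a2, listed here as a plasmacytoid dendritic cell marker, had -0.85. The call was lost under 14 of 21 alternatives for Lyz2 and for Cox6a2 and under 11 of 21 for Adgre1. Adgre1, Lyz2 and Hba-a1 fell on activation in both genotypes, and Cox6a2 rose in both, by 1.47 and 0.62.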

How the results depend on the processing

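The rise of Prdm1, Xbp1, Mzb1, Ell2 and Fkbp11 on activation was called in both genotypes under all 22 alternatives, and the Jchain interaction under all 21 run. The Mzb1 interaction was called under 20 of 21, the exception being the log2 limit of 1. Small differences changed sign: Creb3l2 on activation in Mct1f/fMb1Cre cells was -0.0014 when libraries were scaled to the same total, and on day 0 it ran from -0.0666 (without Mct1f/fMb1Cre replicate 1) to 0.2056. Without single libraries Ell2 on day 0 ran from -0.0943 to 0.1346 and its interaction from -0.1822 to 0.0467, and Prdm1 on day 0 ran from -0.121 to 0.1059 (8e-04 with median-of-ratios scaling). The Fkbp11 interaction was -0.0227 with a pseudocount of 5 and ran from -0.1301 to 0.1913 without single libraries. None of these was called, and the cause was not tested.

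Counts moved with the limit, the filter and the pseudocount, by construction. On day 0 they also moved with the libraries held in the fit. With a log2 limit of 1 the genes called were 54 on day 3, 16 on day 0, 3191 and 2994 on activation in Mb1Cre and Mct1f/fMb1Cre cells and 56 in the interaction. With no limit they were 1650 on day 3, 9258 on activation in Mct1f/fMb1Cre cells and 1020 in the interaction. On day 3 they were 421 with a pseudocount of 0.1 and 120 with one of 5, and the interaction had 156 with one of 5. On day 0 they were 13 with no filter and 2 when the fit held only the compared groups. The members called were 2 on day 3 with no limit and 1 in the interaction with a limit of 1, and on day 0 0 with a limit of 1, no filter, no trend or only the compared groups. Leaving out each library gave 0 to 1 member called on each day (1 on day 3 without Mct1f/fMb1Cre replicate 1, Jchain at -0.55, or without Mb1Cre replicate 2, Mzb1) and 22 to 102 genes called on day 0, with 102 without Mb1Cre replicate 2 and 67 without Mct1f/fMb1Cre replicate 2. A lone library left in a group was assumed to vary like the other groups.

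Scaling moved the median of all genes on activation from -0.12 to -0.31 (same total) and 0.07 (median-of-ratios) in Mb1Cre cells. The split of higher against lower calls was 2687 to 3571 as deposited, 2078 to 4416 with the same total, 3426 to 2762 with median-of-ratios and 3077 to 2982 with quantile normalization in Mb1Cre cells, and 2532 to 3588, 2010 to 4323, 3333 to 2737 and 3026 to 2863 in Mct1f/fMb1Cre cells. Jchain on activation in Mct1f/fMb1Cre cells was -0.43, not called, with median-of-ratios scaling, and Creb3l2 in Mb1Cre cells was called at 0.55 with that scaling and 0.66 with quantile normalization. The replicate block left the members called at 0, 1, 7, 7 and 2 for day 3, day 0, activation in Mb1Cre, activation in Mct1f/fMb1Cre and the interaction, with 262, 27, 6261, 6103 and 274 genes. Correlations of deviations between libraries of the same number ran from -0.122 to 0.0867. The labels do not say what the number stands for. In groups of 2 libraries a gene's deviations are equal and opposite, so these few correlations do not decide whether a mouse or culture was shared. With the numbers of the Mb1Cre day 0 libraries crossed, added after the data were seen, the counts were 274, 30, 6264, 6103 and 295.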
